A study of Mus musculus with 59 samples.

Results

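BCL6 silences genes in liver by recruiting corepressors, and the 7 genes described here encode subunits of corepressor complexes it is known to use or, for *Nrip1*, a separate corepressor of nuclear receptors: *Ncor1*, *Hdac3*, *Tbl1x*, *Tbl1xr1*, *Gps2*, *Bcor* and *Nrip1*. They were examined as possible targets of BCL6, PPARα and PPARδ, out of 21000 protein-coding genes. A ChIP-seq peak was given to one of them when its center lay inside the gene, or when the nearest protein-coding transcription start site (TSS) was the gene's own and no more than 100 kb away. By that rule 175 of 102931 peaks belonged to the 7 genes. Peaks of any list whose centers were closer than 200 bp were joined into 1 site, which gave 63 of 40478 sites. The genes were chosen by the peaks that earlier readings of these lists had shown near some of them, so their numbers of sites describe them and were not tested.

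The study mapped the 3 factors in livers of male C57BL/6 mice that were fed ad libitum or fasted overnight. A set of 6 peak lists came from wild-type mice, 1 for each factor in each feeding state. A seventh came from BCL6 in fed C57BL/6 mice with the Bcl6 fl/fl genotype, which carry floxed *Bcl6* alleles, are the controls of the hepatocyte knockout and are called floxed mice below. Each list combined 3 biological replicates, so 21 of the 59 samples of the series stood behind the lists, and the other 38 were not analysed here. The wild-type fed and fasted lists held 15642 and 9613 peaks for BCL6, 21410 and 29085 for PPARα, and 7328 and 2399 for PPARδ. Fed and fasted counts at a gene are to be read beside these sizes. The lists hold positions only, with no read number, height or p-value. Depth was therefore unknown, no value carried an error between replicates, and each site was either called or not. Whether sites differed in how much factor they held, and how far depth differed between lists, was not tested. Whole liver was used, and which cell type each peak came from was not tested here.

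NCoR, the product of *Ncor1*, is a large scaffold that binds repressors and nuclear receptors without hormone. It carries the histone deacetylase HDAC3, which it also activates, together with TBL1X or TBLR1 and GPS2. BCOR binds the BTB domain of BCL6 and acts with a Polycomb complex, whereas RIP140, the product of *Nrip1*, binds nuclear receptors that hold their ligand and is known in liver and fat for its control of metabolic genes.

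The site called in the most lists at each of 5 genes is shown first, since it is where most calls met. Ties were settled by distance to the TSS, which left out *Tbl1x* site 2 and *Tbl1xr1* sites 2, 3 and 15, and the *Hdac3* site is not printed. Each window holds 201 bases around the site's center on the forward strand of GRCm38, the assembly of mm10, read 5′ to 3′ from the RefSeq genome. Capitals mark matches to 6 elements searched on both strands: the BCL6 element TTCCTAGAA with up to 1 mismatch, the PPAR element DR1 with up to 2, which is AGGTCA repeated with a single A in between, and exact TGTTTAC (FOXA), ATTGAT (HNF6), CAAAGTCCA (HNF4) and TTGCNNAA (C/EBP). Sites are numbered along each gene in the direction of transcription.
*Ncor1* site 4, chr11:62352092-62352292, intron 25: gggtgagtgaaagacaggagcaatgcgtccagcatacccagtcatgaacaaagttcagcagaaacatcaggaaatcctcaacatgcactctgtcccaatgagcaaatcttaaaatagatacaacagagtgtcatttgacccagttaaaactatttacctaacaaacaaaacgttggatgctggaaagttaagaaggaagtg
*Tbl1x* site 3, chrX:77509228-77509428, upstream: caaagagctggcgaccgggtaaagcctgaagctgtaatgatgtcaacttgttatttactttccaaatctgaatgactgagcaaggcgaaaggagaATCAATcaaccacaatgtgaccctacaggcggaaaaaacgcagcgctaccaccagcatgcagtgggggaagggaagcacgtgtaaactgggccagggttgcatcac
*Tbl1xr1* site 9, chr3:22082001-22082201, intron 1: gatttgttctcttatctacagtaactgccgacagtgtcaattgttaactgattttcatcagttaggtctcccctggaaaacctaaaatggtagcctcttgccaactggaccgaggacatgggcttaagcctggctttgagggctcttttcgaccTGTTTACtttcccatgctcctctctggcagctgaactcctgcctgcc
*Bcor* site 20, chrX:12043467-12043667, intron 9: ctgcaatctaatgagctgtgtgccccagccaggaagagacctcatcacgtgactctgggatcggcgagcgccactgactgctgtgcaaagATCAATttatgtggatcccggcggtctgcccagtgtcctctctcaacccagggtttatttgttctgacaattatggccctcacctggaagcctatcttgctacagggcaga
*Nrip1* site 11, chr16:76346455-76346655, intron 2: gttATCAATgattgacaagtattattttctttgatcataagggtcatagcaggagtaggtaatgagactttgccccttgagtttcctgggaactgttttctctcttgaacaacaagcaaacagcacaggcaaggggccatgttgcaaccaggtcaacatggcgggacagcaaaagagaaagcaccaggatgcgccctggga
None of these 5 windows held a BCL6 or DR1 match, whereas *Tbl1xr1* sites 2 and 3, called in as many lists as site 9, held 1 each, printed below. The capitals in the *Tbl1x*, *Bcor* and *Nrip1* windows are HNF6 matches on the reverse strand, the capitals in the *Tbl1xr1* window are a FOXA match, and the *Ncor1* window held none of the 6.

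The central 100 bp of all 63 sites were searched as well, and the BCL6 and DR1 matches were few. The BCL6 element was found in 4 of the 46 sites bound by BCL6, or 8.70% (95% Wilson interval 3.43 to 20.3), against 9.39% of all 23203 BCL6 sites. They are shown to compare the match at *Tbl1xr1* with the 3 at *Bcor*, with capitals on the match.
*Tbl1xr1* site 2, chr3:21987003-21987102, upstream: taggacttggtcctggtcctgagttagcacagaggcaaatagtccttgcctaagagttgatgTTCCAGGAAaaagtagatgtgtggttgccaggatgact
*Bcor* site 3, chrX:12249200-12249299, upstream: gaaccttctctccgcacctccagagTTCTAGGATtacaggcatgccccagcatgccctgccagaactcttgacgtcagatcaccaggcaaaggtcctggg
*Bcor* site 10, chrX:12132648-12132747, intron 1: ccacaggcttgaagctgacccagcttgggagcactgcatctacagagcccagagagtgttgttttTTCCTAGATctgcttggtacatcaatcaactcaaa
*Bcor* site 13, chrX:12122729-12122828, intron 1: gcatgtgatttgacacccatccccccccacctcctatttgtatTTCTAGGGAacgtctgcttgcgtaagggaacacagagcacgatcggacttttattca
In each of the 4 windows 1 base differed from the element, and the matches at *Tbl1xr1* site 2, *Bcor* site 3 and *Bcor* site 13 read on the reverse strand. The *Tbl1xr1* match reads TTCCTGGAA in its own direction and the match at *Bcor* site 10 reads TTCCTAGAT.

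The DR1 element was found in 6 of the 50 PPARα sites, or 12.0% (5.62 to 23.8), against 5.91% of 33371 PPARα sites, a value that lies inside the interval. The sixth lies in exon 4 of *Nrip1* and is not printed. The other 5 are shown for comparison with the BCL6 matches.
*Tbl1xr1* site 3, chr3:21995647-21995746, upstream: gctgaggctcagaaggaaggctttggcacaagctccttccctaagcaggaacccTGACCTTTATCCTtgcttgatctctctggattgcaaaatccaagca
*Tbl1xr1* site 10, chr3:22082890-22082989, intron 1: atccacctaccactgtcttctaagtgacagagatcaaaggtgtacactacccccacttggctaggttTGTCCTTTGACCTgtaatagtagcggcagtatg
*Bcor* site 5, chrX:12224458-12224557, upstream: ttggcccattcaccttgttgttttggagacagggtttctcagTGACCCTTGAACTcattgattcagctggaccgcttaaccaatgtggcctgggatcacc
*Bcor* site 14, chrX:12103524-12103623, intron 1: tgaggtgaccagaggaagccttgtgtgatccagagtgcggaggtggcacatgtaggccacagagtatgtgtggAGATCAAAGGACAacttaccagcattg
*Nrip1* site 14, chr16:76299637-76299736, intron 3: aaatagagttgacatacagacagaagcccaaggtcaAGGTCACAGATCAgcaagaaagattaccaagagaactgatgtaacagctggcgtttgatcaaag
*Tbl1xr1* site 10 came nearest to the element, with 1 mismatch on the reverse strand where it reads AGGTCAAAGGACA. The other 4 had 2 mismatches. No window held both a BCL6 and a DR1 match. Of the liver factors, the HNF6 letters occurred in 9 of 63 sites (14.3%, all sites 10.9%), the C/EBP letters in 7 (11.1%, all sites 12.6%), the FOXA letters in 3 (4.76%, all sites 4.62%) and the HNF4 letters in 0 (Wilson upper limit 5.75%, all sites 1.30%). These intervals cover counting error only, and a match is not evidence of binding.

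At least 1 site was found at 6 of the 7 genes, where 54.2% of protein-coding genes had one. BCL6 peaks were found at 5 of the 7 in fed wild-type livers (29.0% of all genes), 4 in fasted livers (21.5%) and 5 in floxed livers (31.9%). PPARα peaks were found at 5 in fed (35.5%) and 6 in fasted livers (47.6%), and PPARδ peaks at 2 in fed (19.3%) and 1 in fasted livers (9.01%). *Bcor* held 21 sites, *Tbl1xr1* 16, *Nrip1* 15, *Tbl1x* 6, *Ncor1* 4 and *Hdac3* 1, and *Gps2* held none. The median gene held 1 site. More sites were assigned to 173 genes than to *Tbl1xr1*, and to 66 genes than to *Bcor*. Genes differ in the length of genome assigned to them by the rule. The 5 genes with fed BCL6 peaks had from 142 kb (*Ncor1*) to 280 kb (*Bcor*), where the median gene had 55.4 kb. The shares of genes with a peak take no account of this length, but counts of sites were also divided by it. *Bcor* had 75.1 sites per Mb, *Nrip1* 74.7, *Tbl1xr1* 66.7, *Hdac3* 54.6, *Ncor1* 28.1 and *Tbl1x* 23.9, against a median of 7.69 over all genes. Between 64.3% and 87.6% of genes had a lower density than these 6.

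**Figure D1:**
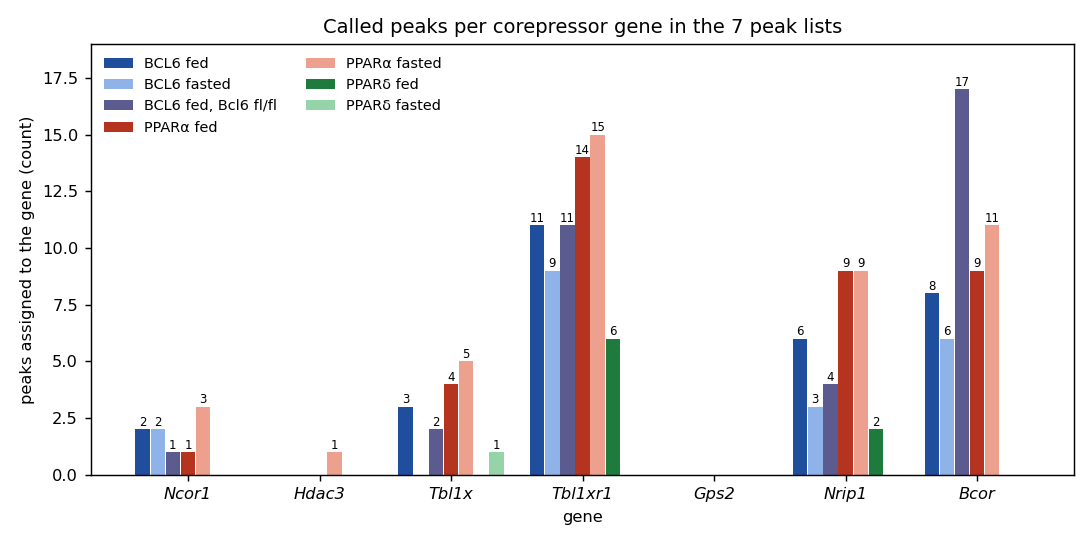
Number of peaks (vertical axis) given to each of the 7 genes in each of the 7 lists, with 1 bar per list and the count above it. *Bcor*, *Tbl1xr1* and *Nrip1* carried most peaks, *Hdac3* had 1 fasted PPARα peak and *Gps2* had none.

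*Ncor1* (chr11:62315663-62457414, reverse strand), the scaffold itself, held 2 fed and 2 fasted BCL6 peaks, 1 in the floxed list, 1 fed and 3 fasted PPARα peaks, and no PPARδ peak. All 4 of its sites lay in introns. Site 1, in intron 1 and 16.3 kb downstream of the 5′-most TSS, carried BCL6 in all 3 BCL6 lists and no PPAR. Site 4, in intron 25 at 105.1 kb, carried BCL6 and PPARα in both feeding states. It lies nearer to the start of the neighboring gene *Ttc19* than to that of *Ncor1*. Its closest BCL6 and PPARα centers were 10 bp apart. Such distances between the factors, here and below, are the smallest over all their lists, whatever the feeding state. Sites 2 and 3 were called for PPARα in fasted livers alone. BCL6 thus met PPARα at 1 of the 4 sites.

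*Hdac3*, on chromosome 18, encodes the deacetylase of the complex and held a single PPARα peak in fasted livers, in intron 2 and 1477 bp downstream of the TSS. No BCL6 list and no PPARδ list had a peak there. *Gps2* (chr11:69913980-69917056, forward strand), a small subunit that binds the scaffold and TBL1X, had no peak in any list. Only 9.41 kb of genome were assigned to it and 18.3 kb to *Hdac3*, where the median gene had 55.4 kb.

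*Tbl1x* and *Tbl1xr1* encode the paralogous WD-repeat subunits, which are known for the exchange of corepressors for coactivators. *Tbl1x* (chrX:77509549-77662722, forward strand; males carry 1 copy) held 3 fed BCL6 peaks, no fasted BCL6 peak and 2 in the floxed list. Fed livers had 4 PPARα peaks and fasted livers 5, and the 1 PPARδ peak was from fasted livers. BCL6 met PPARα at site 2, 37.6 kb upstream, and at site 3, 1.9 kb upstream, where PPARα was called in both feeding states and BCL6 in both fed lists alone. Site 4 (chrX:77510608-77510830), 508 bp upstream of the TSS, was in the promoter, taken as 1000 bp upstream to 100 bp downstream of a TSS, and held fasted PPARα only. Site 5, in intron 1, held the sole fasted PPARδ peak of the 7 genes, with PPARα in both states.

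*Tbl1xr1* (chr3:22076253-22216594, forward strand) was the gene where the 3 factors shared the most sites. Fed livers had 11 BCL6 peaks and fasted livers 9, and the floxed list had 11. PPARα peaks numbered 14 in the fed state and 15 in the fasted state, and PPARδ peaks 6 and 0. The 16 sites fell into 3 groups, with 5 lying 68.0 to 92.5 kb upstream, 7 between 1.6 kb upstream and 15.2 kb downstream of the TSS, and 4 from 91.3 to 112.2 kb downstream in introns 2 to 4. BCL6 and PPARα were both called at 14 of the 16. Site 5 was BCL6 alone in fed livers, and site 1 was PPARα alone in both states. Site 7 (chr3:22076033-22076308), 490 bp upstream, lay in the promoter, and site 8 followed in exon 1, 107 bp downstream. Both had PPARα in fed and fasted livers, and BCL6 only in the floxed list.

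All 3 factors were called at 6 *Tbl1xr1* sites and at 1 *Nrip1* site. The *Tbl1xr1* sites were site 2 (chr3:21986933-21987205) and site 3 (chr3:21995582-21995822), upstream, site 9 (chr3:22081945-22082227), site 10 (chr3:22082825-22083062) and site 11 (chr3:22090503-22090841), all in intron 1, and site 15 (chr3:22181063-22181322), in intron 3. PPARα was called in both feeding states at each of them and PPARδ in fed livers alone. BCL6 was called in both feeding states at 5 of them and in fed livers alone at site 11. The closest BCL6 and PPARα centers were 0 to 18 bp apart at these sites, and 0 at site 3, which holds one of the DR1 matches printed above. Site 2 holds the BCL6 match. Sites 9, 11 and 15 held neither within their central 100 bp.

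**Figure D2:**
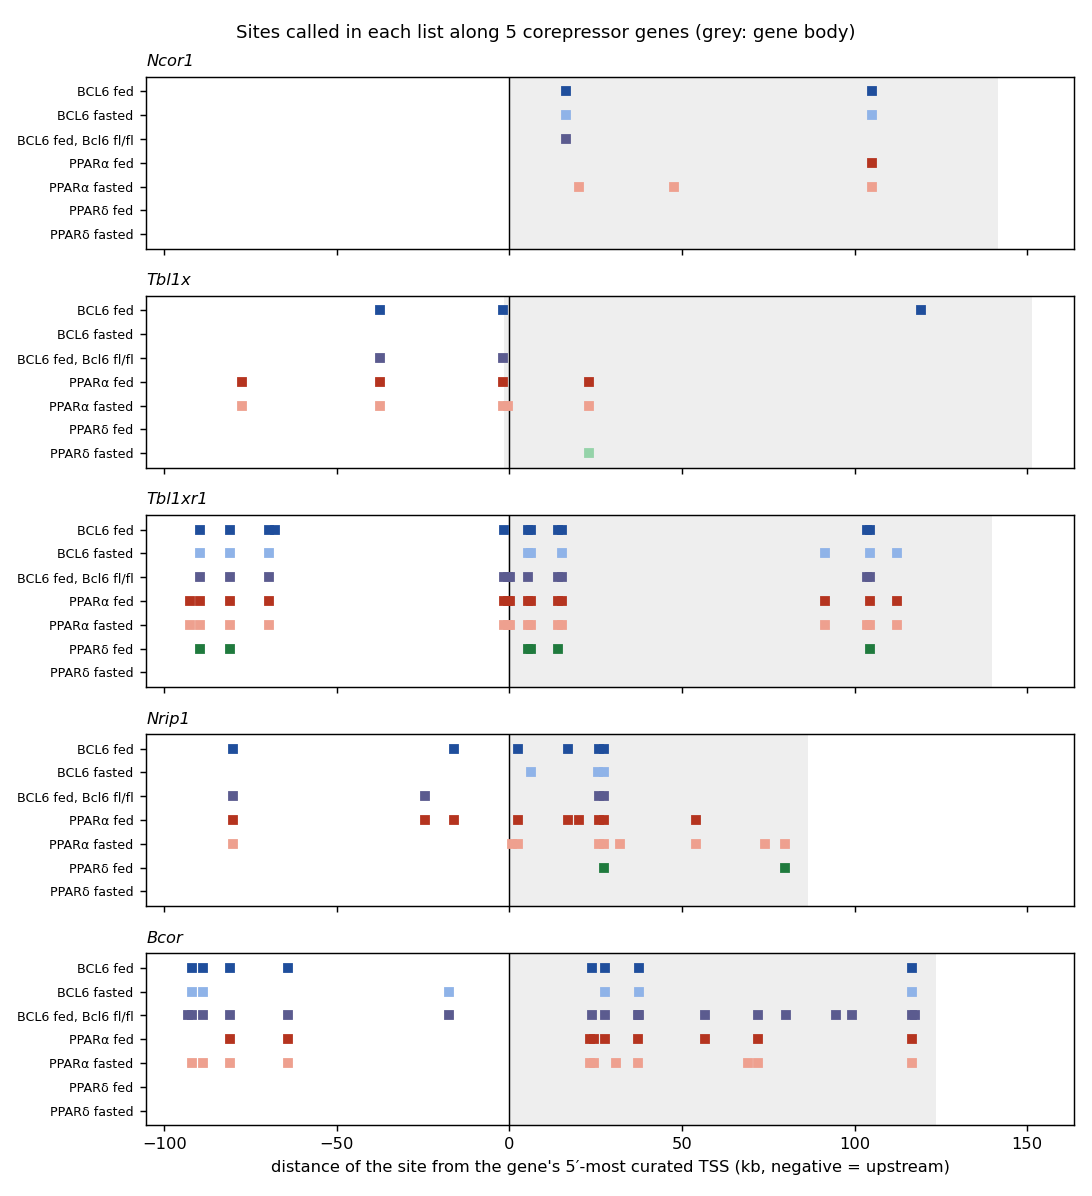
Position of each called site along 5 of the genes (horizontal axis, kb from the gene's 5′-most curated TSS, negative values upstream), with 1 row of squares per peak list and the gene body in grey. Columns of squares in *Tbl1xr1* are sites where the factors coincided, and *Bcor* has squares for the floxed BCL6 list where the other lists have none.

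*Nrip1* (chr16:76287403-76373827, reverse strand) held 6 fed BCL6 peaks, 3 fasted ones and 4 in the floxed list. There were 9 PPARα peaks in each feeding state, and 2 fed and no fasted PPARδ peaks. Upstream, 3 sites lay 16.2 to 80.2 kb from the TSS, and 12 lay inside the gene. BCL6 and PPARα met at 7 of the 15 sites. Site 11 (chr16:76346403-76346698), in intron 2 and 27.3 kb downstream of the 5′-most TSS, was called in 6 lists. It was the 1 site of *Nrip1* with all 3 factors, although its closest BCL6 and PPARα centers were 51 bp apart. It was also the sole site with BCL6 in both feeding states. Site 4 (chr16:76373089-76373311), 151 bp upstream of a second TSS, lay in a promoter and held fasted PPARα only. Site 15 joined PPARα of fasted livers with PPARδ of fed livers in exon 4.

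The PPARα calls at *Nrip1*, equal in number between the feeding states, lay partly at different positions. PPARα was called in both states at 5 of its sites, in fed livers alone at 4 and in fasted livers alone at 4. The unpaired share was 44.4% (18.9 to 73.3) in each state, against 20.1% of all fed and 41.2% of all fasted PPARα peaks. BCL6 calls differed as well. Of 6 fed peaks, 5 had no fasted partner (83.3%, 43.6 to 97, all fed BCL6 peaks 51.1%). Of 3 fasted peaks, 2, at sites 6 and 9, had no fed one (66.7%, 20.8 to 93.9, all fasted BCL6 peaks 20.4%). Whether *Nrip1* differs from the whole lists was not tested. Sites 9 and 10, the first called for BCL6 in fasted livers and the second in fed livers, were the closest pair of all, with centers 282 bp apart.

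*Bcor* (chrX:12036737-12160516, reverse strand; 1 copy in males) had the most sites and no PPARδ peak. Fed livers had 8 BCL6 peaks and fasted livers 6, while the floxed list had 17. PPARα peaks numbered 9 when fed and 11 when fasted. Of the sites, 6 lay 17.6 to 93.0 kb upstream and 15 in introns, none of them in a promoter. BCL6 and PPARα met at 9 sites, BCL6 stood alone at 8 and PPARα alone at 4. Site 20, in intron 9 and 116.8 kb downstream of the 5′-most TSS, was called in 5 lists, every one but the PPARδ lists. Its closest BCL6 and PPARα centers were 29 bp apart. Sites 2 and 3, upstream, had BCL6 in all 3 BCL6 lists and PPARα in fasted livers alone.

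The 2 fed BCL6 lists were also compared at *Bcor*. All 8 fed wild-type BCL6 peaks had a partner in the floxed list (0% without one, 0 to 32.4), where 30.6% of all fed wild-type peaks had none. Of the 17 floxed peaks, 9 had none in the fed wild-type list, or 52.9% (31.0 to 73.8). This compares with 37.8% of all floxed peaks and 38.8% of the 281 on the X chromosome. Both intervals include the share of the whole list, and whether *Bcor* differs from the whole lists was not tested. Of its 17 BCL6 sites, 8 were called in the floxed list alone, or 47.1% (26.2 to 69.0), and 5 of those were called for no other factor. Over the 7 genes 11 of 46 BCL6 sites were called in the floxed list alone (23.9%), against 24.2% of all BCL6 sites. Without *Bcor* the count was 3 of 29, or 10.3% (3.58 to 26.4). Genotype and depth cannot be told apart in this comparison. Without the floxed list BCL6 would be called at 9 *Bcor* sites in place of 17.

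Fasting was followed across the 7 genes by asking whether a peak had a partner within 200 bp in the other feeding state. The 7 genes held 0.192% of the fed and 0.208% of the fasted BCL6 list. Of the 30 fed BCL6 peaks, 15 had no fasted partner, or 50.0% (33.2 to 66.8), against 51.1% of all fed BCL6 peaks. Of the 20 fasted BCL6 peaks, 5 had no fed partner (25.0%, 11.2 to 46.9), against 20.4%. Both shares lay close to those of the whole lists. The genes did not contribute alike: the fed peaks without a fasted partner were 3 of 3 at *Tbl1x*, 5 of 6 at *Nrip1*, 4 of 11 at *Tbl1xr1*, 3 of 8 at *Bcor* and 0 of 2 at *Ncor1*. With so few peaks a gene, each of these intervals included 51.1%, and whether the genes differ was not tested. On the X chromosome, which carries *Tbl1x* and *Bcor*, 63.5% of the 244 fed BCL6 peaks had no fasted partner.

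PPARα moved the other way in number, from 37 fed to 44 fasted peaks, as did the whole lists, from 21410 to 29085. The 7 genes held 0.173% of the fed and 0.151% of the fasted PPARα list. Of the fed peaks 6 had no fasted partner (16.2%, 7.65 to 31.1), against 20.1% of all fed PPARα peaks, and of the fasted peaks 13 had no fed partner (29.5%, 18.2 to 44.2), against 41.2%. *Tbl1xr1* stood at one end, with 14 fed peaks that all had a fasted partner and 1 of 15 fasted peaks without a fed one (6.67%, 1.19 to 29.8). Without *Tbl1xr1* the fasted share was 12 of 29, or 41.4%. On the X chromosome, which carries *Tbl1x* and *Bcor*, 25.0% of fed and 53.1% of fasted PPARα peaks were unpaired. *Nrip1* had 4 of 9 peaks unpaired in each state, the highest share of the 5 genes with fed peaks, whereas among fasted peaks *Ncor1* had 2 of 3 and *Hdac3* 1 of 1. PPARδ went from 8 fed peaks (0.109% of the list) to 1 fasted peak (0.0417%) at another site. That fasted peak had no fed partner (36.2% of all fasted PPARδ peaks). None of the 8 had a fasted partner, where 79.1% of all fed PPARδ peaks had none, and the interval of 67.6 to 100 includes that value.

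**Figure D3:**
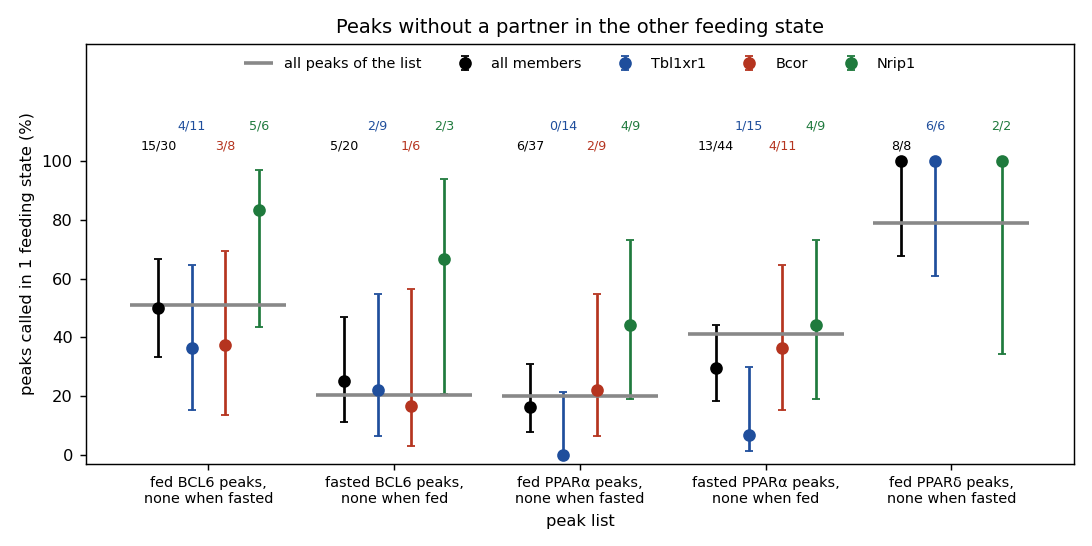
Share of peaks (%, vertical axis) with no partner in the other feeding state, for the 7 genes together and for 3 of them, with 95% Wilson intervals and the counts above. Grey lines give the share over all peaks of the same list, and no point is drawn for *Bcor* under PPARδ because it had no such peak.

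At the sites where wild-type BCL6 and PPARα met, the feeding states of the factors were set side by side. There were 27 such sites, and both factors were called in both states at 10 of them (all such sites of the series 44.0%). At 9, BCL6 was called in fed livers alone while PPARα was called in both (25.1% in the series). At 2 sites both were called in fed livers alone (8.37% in the series), and at none were both called in fasted livers alone (2.53%). At 1, *Tbl1xr1* site 14, BCL6 was called in fed and PPARα in fasted livers alone (5.85%), so never in the same state. BCL6 of both states met PPARα of fasted livers alone at 2 (3.28%) and of fed livers alone at 1 (3.10%). BCL6 of fasted livers alone met PPARα of both states at 2 (7.21%). Fed BCL6 at sites that kept a PPARα call in both states occurred at *Tbl1x* sites 2 and 3, *Tbl1xr1* sites 6 and 11, *Bcor* sites 4 and 5, and *Nrip1* sites 1, 5 and 10.

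Over the 63 sites, 46 carried BCL6 in some list, or 73.0% (61.0 to 82.4), against 57.3% of all sites. PPARα was called at 50 (79.4%, all sites 82.4%) and PPARδ at 9 (14.3%, all sites 20.2%), each of which also had PPARα. BCL6 and PPARα shared 33 sites, 14 of them at *Tbl1xr1*, which is 71.7% of the BCL6 sites (all BCL6 sites 74.1%) and 66.0% of the PPARα sites (52.2 to 77.6, all PPARα sites 51.5%). Without *Tbl1xr1* these shares were 61.3% and 54.3%, and 66.0% of sites carried BCL6. All 3 factors met at 7 sites (11.1%, all sites 13.7%), and at 1 of 47 without *Tbl1xr1*. BCL6 stood alone at 13 (20.6%, all sites 14.5%) and PPARα alone at 15 (23.8%, all sites 36.4%). Only 3 sites lay in a promoter (4.76%, 1.63 to 13.1), where 12.6% of all sites did. Neighboring sites share their gene, so they are not independent, and intervals that allowed for this would be wider.

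The rule allowed up to 200 bp between neighboring centers of a site. The closest BCL6 and PPARα centers at the 33 shared sites, taken over all lists and both feeding states, were 0 to 102 bp apart. Their median was 12 bp, which was also the median of the 17187 shared sites of the series. Other centers within a site can lie farther apart. GC content in the central 100 bp ran from 34.0% to 84.0% with a median of 48.0%, as over all sites, and the highest value was at *Bcor* site 17, 465 bp downstream of an internal TSS. Of the 57 gaps between neighboring sites of a gene, 8 were under 1000 bp. A single list supported 19 of the 63 sites (30.2%, all sites 39.6%): 9 of them fasted PPARα, 5 floxed BCL6, 2 each fed and fasted BCL6, and 1 fed PPARα. No site was called in all 7 lists (all sites 1.60%), and 5 were called in 6 (7.94%, all sites 5.67%).

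Genes of related complexes were counted by the same rule. *Bcl6* itself held 17 sites at 128 per Mb, with 11 fed and 6 fasted BCL6 peaks, 12 fed and 11 fasted PPARα peaks, and 7 fed and 1 fasted PPARδ peaks. *Rybp*, which encodes a partner of BCOR in its Polycomb complex, held 14 sites at 70.0 per Mb. *Ppargc1a*, which encodes the coactivator PGC-1α, held 13 sites at 19.6 per Mb, with 6 fed and 2 fasted BCL6 peaks and 5 fed and 9 fasted PPARα peaks.

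The 7 partners of BCOR listed held 30 sites in 4 genes, and 11 subunits of the NuRD deacetylase complex held 13 in 6 genes. The 3 SIN3 genes held 3 sites, all at 1 gene, the 2 CtBP genes held 3, and the 4 class IIa deacetylase genes held 13. The 8 coactivator genes, which encode the opposing cofactors of nuclear receptors, all had a site and held 55 together. The median density was 54.6 sites per Mb over the 7 genes described here, 23.8 over the coactivators, 56.0 over the partners of BCOR, 6.46 over NuRD and 7.69 over all genes. The value of 54.6 is that of *Hdac3* and rests on 1 fasted PPARα peak in 18.3 kb. Single genes of the 7 ran from 0 at *Gps2* to 75.1 at *Bcor*. The lists compared hold few genes of unequal length, and their differences were not tested.

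**Figure D4:**
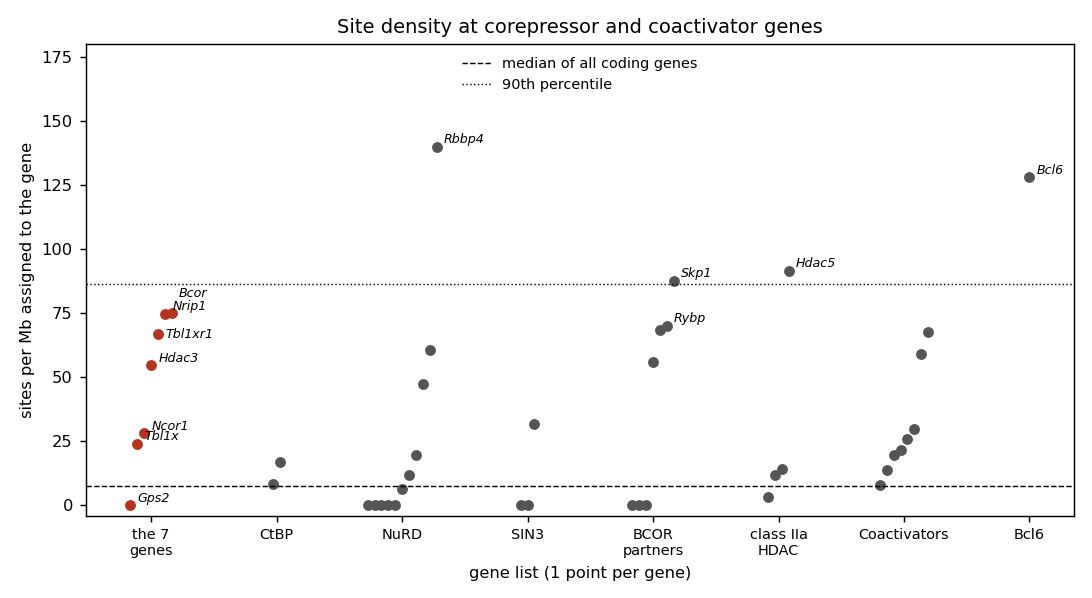
Sites per Mb of genome assigned to each gene (vertical axis), 1 point per gene, for the 7 genes (red) and the related lists (grey), with the median of all protein-coding genes (7.69, dashed) and their 90th percentile (86.3, dotted). *Rbbp4*, *Bcl6*, *Hdac5* and *Skp1* lie above *Bcor*, the densest of the 7 genes.

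The genes whose peak counts over the 7 lists were nearest to those of *Bcor* were *Ppp2r2b*, *Id2* and *Lin7a*, at distances of 1.27, 1.39 and 1.41 (Euclidean, log2 of the count plus 1). *Ppp2r2b* had 11 fed, 6 fasted and 8 floxed BCL6 peaks and 7 PPARα peaks in each state, and *Id2* had 6, 4 and 10 BCL6 peaks and 9 PPARα peaks in each state. *Lin7a* had 8, 5 and 11 BCL6 peaks, with 9 fed and 6 fasted PPARα peaks. The measure compares counts only and says nothing of where the sites lie.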

How the data were processed

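ChIP-seq of BCL6, PPARα and PPARδ was analysed from 7 lists, each a pool of 3 replicate libraries. Per the authors, Bowtie placed reads on mm10 (unique alignments retained), HOMER found peaks in the pooled replicates relative to input, and DESeq2 filtered these using the separate libraries. Reads that aligned to more than 1 place are therefore missing. The deposited values are peak positions (other: chromosome, start and end, with 1 width per list from 192 to 222 bp), without normalization, counts or scores, so no count test could be run.

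Centers less than 200 bp apart were joined by single linkage over the 7 lists. Genes came from 45269 curated transcripts of the GRCm38 RefSeq annotation. Per Mb values divide sites by the genome assigned to a gene by the rule. Shares carry 95% Wilson intervals, which cover counting error only. The functions were tested on simulated lists. The 7 genes, the related lists and the elements were chosen with earlier results of these data known. By rule the text names the 7 genes, the 3 genes with most sites in the related lists (1 list is not reported here) and the 3 genes nearest *Bcor* in counts, and gives positions of sites with all 3 factors, in a promoter, or in the most lists; *Rbbp4*, *Hdac5*, *Skp1* and the other windows and sites were chosen after their values were seen. Alternatives changed reach, assignment, TSS set, joining distance, fed BCL6 list, promoter, scan window and mismatches. Tools were Python 3.11.15, SciPy 1.17.1, NumPy 2.4.6 and, for plots, Matplotlib 3.10.9.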

Additional observations from a re-analysis of the deposited data

How the results depend on the processing

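The numbers of peaks and sites, the main shares lost or gained with fasting, and the shares in promoters and with an element were recomputed with 1 choice changed at a time. Other shares and the densities were not. For the 7 genes together, 89 values stayed close to the reported value (counts within 1.5 times, shares within their interval) and 19 moved. With a reach of 1 Mb there were 120 sites, 68 with BCL6 and PPARα and 16 with all 3 factors, and the peaks were 64 fed, 38 fasted and 71 floxed for BCL6, 71 fed and 80 fasted for PPARα, and 18 fed and 2 fasted for PPARδ. With gene bodies alone there were 19 sites with BCL6 and PPARα, 17 fed and 20 floxed BCL6 peaks and 23 fed PPARα peaks. Without *Tbl1xr1*, a choice made after seeing the data, 19 sites had BCL6 and PPARα and 1 had all 3 factors. A promoter from 5000 bp upstream to 1000 bp downstream held 14.3% of sites. The share of all sites in that wider promoter is not given here, and the 12.6% above belongs to the narrower one, so the 2 values cannot be compared. With 1 mismatch fewer, 0% of BCL6 sites held the BCL6 element and 2.0% of PPARα sites the DR1 element. Of 70 values for single genes 5 moved: *Tbl1xr1* had 38 sites, *Bcor* 41 and *Nrip1* 29 within 1 Mb, and *Tbl1xr1* 9 and *Tbl1x* 3 in the gene body. These moves follow from the wider or narrower assignment. *Bcor* was also left out after seeing the data. This left the numbers of sites, shared sites and sites with all 3 factors, and the shares lost or gained with fasting, close to those reported, but floxed BCL6 peaks went from 35 to 18, sites with BCL6 alone from 13 to 5, and BCL6 sites called in the floxed list alone from 23.9% to 10.3%. With model transcripts included there were 65 sites.

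Leaving out a replicate was not possible, since each list pools its 3 replicates. No paired analysis was possible because the pooled lists carry no replicate numbers and no result came from a test. A site that was not called is one below the authors' threshold, and the depth behind that threshold is unknown in each list.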

Other observations

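Beyond the reach of 100 kb, 57 further sites had one of the 7 genes as their nearest protein-coding start within 1 Mb. *Tbl1xr1* had 22 of them, 112 to 650 kb away, *Bcor* 20 at 113 to 345 kb, *Nrip1* 14 at 130 to 221 kb and *Tbl1x* 1 at 228 kb, while *Ncor1*, *Hdac3* and *Gps2* had none. BCL6 was called at 45 of the 57 (57.3% of all sites), PPARα at 47 (82.4%), both at 35 (17187 of all 40478 sites) and all 3 factors at 9 (13.7%). PPARδ was called at 3 of the 20 distant sites of *Bcor* and at 0 of its 21 nearer ones (Wilson upper limit 15.5%), against 20.2% of all sites. The 3 distant ones were all called in fed livers, and each also carried BCL6 and PPARα. Whether its nearer and distant sites differ was not tested. Across the distant sites BCL6 was called at 34 in fed and 18 in fasted wild-type livers, PPARα at 34 and 36, and PPARδ at 10 and 1. The whole lists went from 15642 to 9613 peaks for BCL6, from 21410 to 29085 for PPARα and from 7328 to 2399 for PPARδ. Whether the distant sites differ from the whole lists was not tested. Whether these sites act on the genes nearest to them was not tested.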
